A study of Capra hircus with 13 samples.

Results

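The zona pellucida is the glycoprotein coat that the growing oocyte lays down around itself, and sperm bind to it at fertilization. The oocyte also secretes growth factors of the TGF-beta family, among them GDF9 and BMP15, which act on the surrounding granulosa and cumulus cells. These mRNAs are made in the growing oocyte and are inherited by the embryo, where maternal mRNAs are cleared while the embryonic genome becomes active. The 6 genes described here were listed by name for these roles, with no threshold on a measured value but with earlier results of these data known. They are the zona genes *ZP2*, *ZP3* and *ZP4* and the growth factor genes *GDF9*, *BMP15* and *BMP6*, out of 18138 gene names listed in all tables. All 6 were listed in every table and passed the filter of a mean of at least 1 FPKM in both fits. *ZP1* was not analysed here.

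Goat (*Capra hircus*) oocytes and embryos fertilized *in vitro* were profiled by Smart-seq2, which copies mRNA with a poly(A) tail, so a change of tail and a change of amount cannot be told apart in these values. The untreated groups were 3 libraries of MII oocytes, which are mature oocytes arrested before fertilization, 3 of 4-cell and 3 of 8-cell stage embryos. The injected groups were 2 libraries of embryos given negative control siRNA (NC, labelled WT) and 2 of embryos given *YTHDF2* siRNA (YTHDF2-KD), injected into the zygote 8 h after fertilization at 20 µM for *YTHDF2* and collected at the 8-cell stage, with 15 embryos pooled per library. The comparisons ask whether the level of these mRNAs, as a share of each library, falls between the MII oocyte and the 8-cell stage. They also ask whether *YTHDF2*, the reader protein that binds m6A-marked mRNA and promotes its decay, changes this level. The amount per embryo was not measured, so a level that held or rose does not show that the mRNA was kept. The knockdown lowers the mRNA by injected siRNA and removes no allele, and a mixture of 2 siRNAs was used. Their antisense strands, which define the treated group, are given 5′ to 3′ with the seed (bases 2 to 8) in capitals.
s28148 antisense: uUGCUAGCaauaucagcccaa
s28147 antisense: uGGUCUAUaguauucaugcca
The first 19 bases of each antisense strand complement the sense strands gggcugauauugcuagcaatt and gcaugaauacuauagaccatt, and the seeds differ.

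The untreated libraries held 26853876 to 42495116 fragments, recovered from the steps of the FPKM values, and the depth of the injected libraries is unknown. *ZP2* rested on 38927 to 68106 fragments per untreated library and *BMP6*, the least abundant of the 6 genes, on 99 to 819, where counting error reached 10.1%. The genes listed at all stages held 64.9 to 66.3% of the fragments of MII libraries and 94.7 to 97.0% of those of embryo libraries. FPKM is set against the whole total. Over all tested genes the median change against MII was 0.29 (4-cell) and 0.37 (8-cell) on the log2 scale, and -0.13 and 0.03 with the shared genes put on the same sum, so each stage comparison is also given after the libraries were rescaled. The untreated libraries come from 2 previous studies, and study and stage cannot be told apart. Untreated 8-cell replicate 1 stood apart, with a correlation of log2 values of 0.921 and 0.944 with the other 8-cell replicates against 0.979 between those. Its summed level of 4 genes activated at the 8-cell stage was the lowest, at 334 FPKM against 1380 and 525. Calls that end without it are given with their value without it. Nothing states that replicates are separate collections of animals, so p-values measure the spread between these libraries. In bulk samples, fewer cells of a type and less RNA per cell cannot be told apart. *YTHDF2* itself measured 112 and 159 FPKM in NC and 8.07 and 4.47 FPKM in YTHDF2-KD, and its log2 fold change was -4.25 (limma SE 0.43, adjusted p = 3.7e-04).

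In the MII oocytes, 4 of the genes were among the most abundant mRNAs. *ZP2*, whose protein is the zona component cleaved after fertilization, averaged 520 ± 69.2 FPKM (SD, *n* = 3) and ranked 46 to 64 from the top of the 18138 names. *ZP4*, present in the zona of ruminants, averaged 472 ± 206 FPKM and ranked 40 to 97. *BMP15* averaged 354 ± 94.2 FPKM and ranked 66 to 114, and *GDF9* averaged 258 ± 111 FPKM and ranked 84 to 223. *ZP3*, which encodes the zona protein best known for its part in sperm binding in mice, averaged 109 ± 88.4 FPKM and ranked 189 to 974. *BMP6* averaged 7.30 ± 2.15 FPKM and ranked 3528 to 4597. From *ZP2* down to *ZP3* the libraries of neighbours in this order overlapped, and only *BMP6* lay apart from the gene above it.

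At the 8-cell stage the order of the means was the same, and *ZP2*, *ZP4*, *BMP15* and *GDF9* were still highly ranked. *ZP2* averaged 852 ± 125 FPKM (rank 33 to 51), *ZP4* 686 ± 148 FPKM (38 to 81), *BMP15* 613 ± 252 FPKM (31 to 109) and *GDF9* 455 ± 52.7 FPKM (96 to 120). *ZP3* averaged 38.8 ± 23.5 FPKM (1094 to 2336) and *BMP6* 3.99 ± 0.762 FPKM (5672 to 6273). The libraries of neighbours from *ZP2* to *GDF9* overlapped, while *ZP3* lay below *GDF9*, and *BMP6* below *ZP3*, in every 8-cell library.

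**Figure D1:**
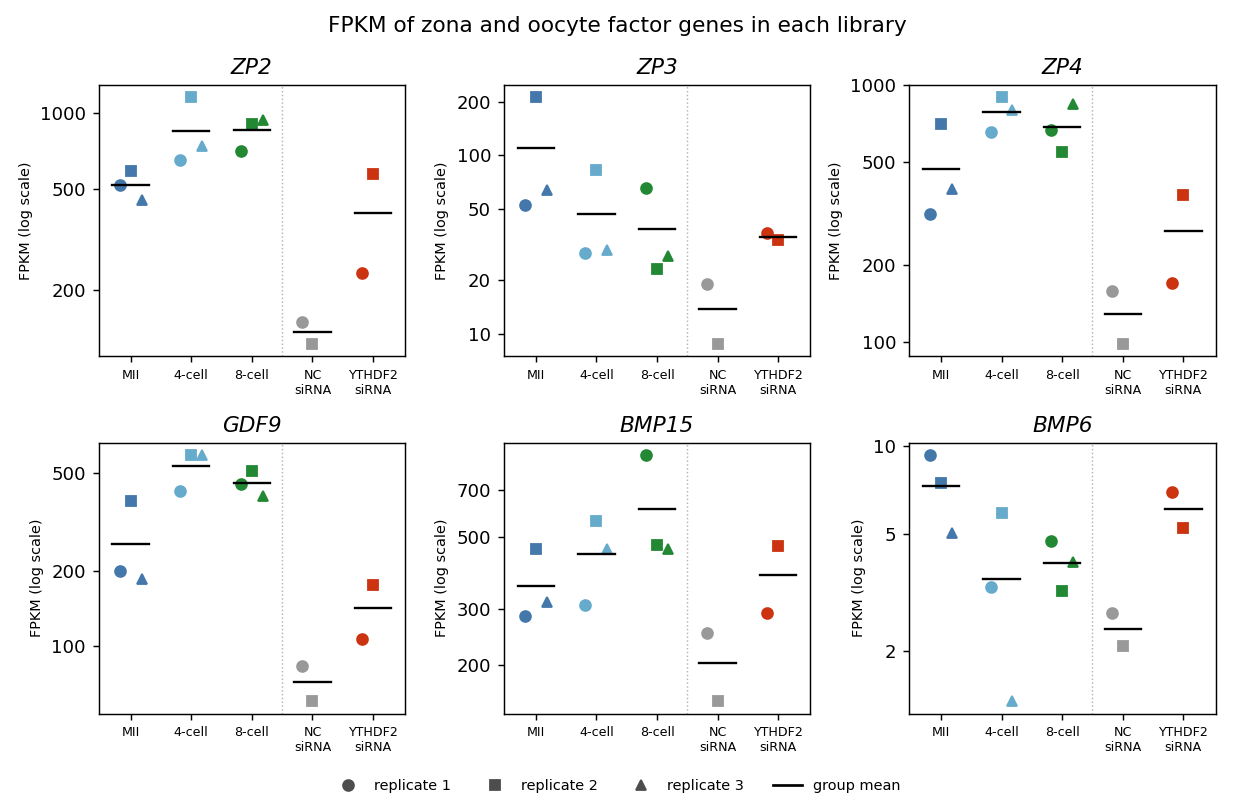
FPKM (log axis) of each gene in every library, with 1 point per library, the point shape giving the replicate number and the line the group mean; the dotted line separates tables that were normalized separately. *ZP2*, *ZP4*, *GDF9* and *BMP15* sat at 187 to 1153 FPKM in all untreated libraries, and both YTHDF2-KD points lay above both NC points for each of the 6 genes.

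The values of *ZP2* were 517, 590 and 452 FPKM in the MII replicates, 650, 1153 and 738 FPKM at the 4-cell stage and 710, 905 and 942 FPKM at the 8-cell stage. Every embryo library was above every MII library. *ZP4* measured 316, 706 and 393 FPKM in MII, 654, 897 and 799 FPKM at the 4-cell stage and 668, 548 and 842 FPKM at the 8-cell stage. Only MII replicate 2 reached the embryo values of *ZP4*. *ZP3* measured 52.7, 211 and 64.3 FPKM in MII, 28.4, 82.4 and 29.6 FPKM at the 4-cell stage and 65.9, 23.3 and 27.3 FPKM at the 8-cell stage. For *ZP3* a single library was high in each group, namely MII replicate 2, 4-cell replicate 2 and 8-cell replicate 1, and the groups overlapped.

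*GDF9*, which drives growth and expansion of the cumulus, measured 201, 386 and 187 FPKM in MII, 421, 590 and 588 FPKM at the 4-cell stage and 452, 509 and 404 FPKM at the 8-cell stage. All embryo libraries were above all MII libraries, the closest being 8-cell replicate 3 and MII replicate 2. *BMP15*, the paralog with which GDF9 can pair, measured 285, 461 and 315 FPKM in MII, 309, 560 and 461 FPKM at the 4-cell stage and 903, 474 and 460 FPKM at the 8-cell stage. Its highest value came from 8-cell replicate 1, and the groups overlapped. *BMP6*, a ligand of the BMP branch, measured 9.35, 7.49 and 5.05 FPKM in MII, 3.31, 5.93 and 1.35 FPKM at the 4-cell stage and 4.73, 3.21 and 4.01 FPKM at the 8-cell stage. Its 8-cell values were all below its MII values, while 4-cell replicate 2 overlapped with MII.

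A gene was called when limma on log2(FPKM + 1) gave it an unadjusted p below 0.05 and its change exceeded 2-fold, and log2 fold changes are on this scale. As deposited, 0 of the 6 genes passed as lower against MII at either stage, where 6.06% (4-cell) and 8.14% (8-cell) of all tested genes did. *GDF9* alone passed as higher, and that at the 4-cell stage alone, where 16.7% of all genes passed as higher. At the 8-cell stage 0 of 6 passed as higher, where 19.8% of all genes did. Counts by an adjusted p under 0.05 alone, with no fold threshold, were 1 gene for the 4-cell embryos (*GDF9*) and 2 for the 8-cell embryos (*ZP2* and *GDF9*), all higher, beside 24.7% and 27.3% of all genes. Both comparisons share the MII libraries.

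For *GDF9* limma gave a log2 fold change of 1.11 in 4-cell embryos (SE 0.27, adjusted p = 0.014) and of 0.89 in 8-cell embryos (SE 0.27, adjusted p = 0.030). That of *ZP2* was 0.67 (SE 0.23, adjusted p = 0.052) and 0.71 (SE 0.23, adjusted p = 0.036). Against the median of all genes these were 0.82 and 0.52 for *GDF9*, and 0.38 and 0.34 for *ZP2*. The groups lay apart, with the embryo higher, for 2 of 6 genes at each stage, *ZP2* and *GDF9*, as for 37.8% (4-cell) and 36.4% (8-cell) of all genes. *ZP4* fell short of 2-fold at both stages, with 95% intervals of 0.15 to 1.46 in 4-cell embryos, above 0, and of -0.05 to 1.26 in 8-cell embryos. For *BMP15* the intervals were -0.40 to 1.03 and 0.03 to 1.47 (limma adjusted p = 0.50 and 0.095).

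*ZP3* and *BMP6* had negative log2 fold changes. For *ZP3* limma gave -1.10 in 4-cell embryos (95% interval -2.47 to 0.27, adjusted p = 0.20) and -1.34 in 8-cell embryos (-2.71 to 0.03, adjusted p = 0.11). For *BMP6* it was -0.97 (-1.84 to -0.11, adjusted p = 0.083) and -0.71 (-1.58 to 0.15, adjusted p = 0.18). Relative to the median of all genes they were -1.39 and -1.71 for *ZP3*, and -1.26 and -1.08 for *BMP6*. Groups lay apart with the embryo lower for *BMP6* at the 8-cell stage only, as for 13.7% of all genes, and for 0 of 6 genes at the 4-cell stage, against 14.1%.

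These calls changed with the scaling of the libraries, and some also with other settings, given below. Each of 3 rescalings of the libraries (median-ratio, quantile and same sum over the shared genes) called *ZP3* and *BMP6* lower at both stages and *GDF9* at neither. With median-ratio rescaling, 8-cell embryos had log2 fold changes of -1.71 for *ZP3* (limma adjusted p = 0.021) and -1.03 for *BMP6* (adjusted p = 0.041), and 4-cell embryos had -1.40 (adjusted p = 0.060) and -1.24 (adjusted p = 0.026). *GDF9* was then at 0.81 at the 4-cell stage, and at 0.56 and 0.57 with the other two. Over the alternatives that kept all libraries, *ZP2*, *ZP4*, *GDF9* and *BMP15* stayed at 0.16 to 0.90 at the 8-cell stage and were called lower in none. At the 4-cell stage *BMP15* turned to -0.26 and -0.22 with quantile and same-sum rescaling, and *ZP2*, *ZP4* and *GDF9* stayed above 0.

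Single libraries mattered as well. *GDF9* at the 4-cell stage was 0.97 without MII replicate 1 and 0.92 without MII replicate 3, below 2-fold, while without MII replicate 2 *GDF9* at the 8-cell stage (1.22) and *ZP4* at the 4-cell stage (1.14) passed as higher. In 8-cell embryos *ZP3* passed as lower without the divergent replicate 1 (-1.79, limma adjusted p = 0.039) or without MII replicate 1 (-1.72), and in 4-cell embryos without their replicate 2 (-1.59). Without MII replicate 2, the library with the most *ZP3*, it was -0.49 (4-cell) and -0.72 (8-cell). *BMP6* at the 4-cell stage passed as lower without MII replicate 3 (-1.18) or 4-cell replicate 2 (-1.35). Without 8-cell replicate 1, *BMP15* at the 8-cell stage was 0.43 against MII.

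From the 4- to the 8-cell stage 0 of the 6 genes passed in either direction, where 4.55% of all genes passed as higher and 4.28% as lower. The groups of all 6 overlapped, while 11.6% of all genes lay apart and higher and 16.6% apart and lower. The log2 fold changes were 0.04 for *ZP2*, -0.24 for *ZP3*, -0.20 for *ZP4*, -0.22 for *GDF9*, 0.43 for *BMP15* and 0.26 for *BMP6*. Without 8-cell replicate 1, where *BMP15* was highest, it was at 0.12, and *ZP3* was at -0.69, *ZP2* at 0.17 and *BMP6* at 0.16. With all libraries, the 95% intervals ran from -0.47 to 0.56 for *ZP2*, which leaves less than 2-fold either way, and from -1.60 to 1.13 for *ZP3*.

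**Figure D2:**
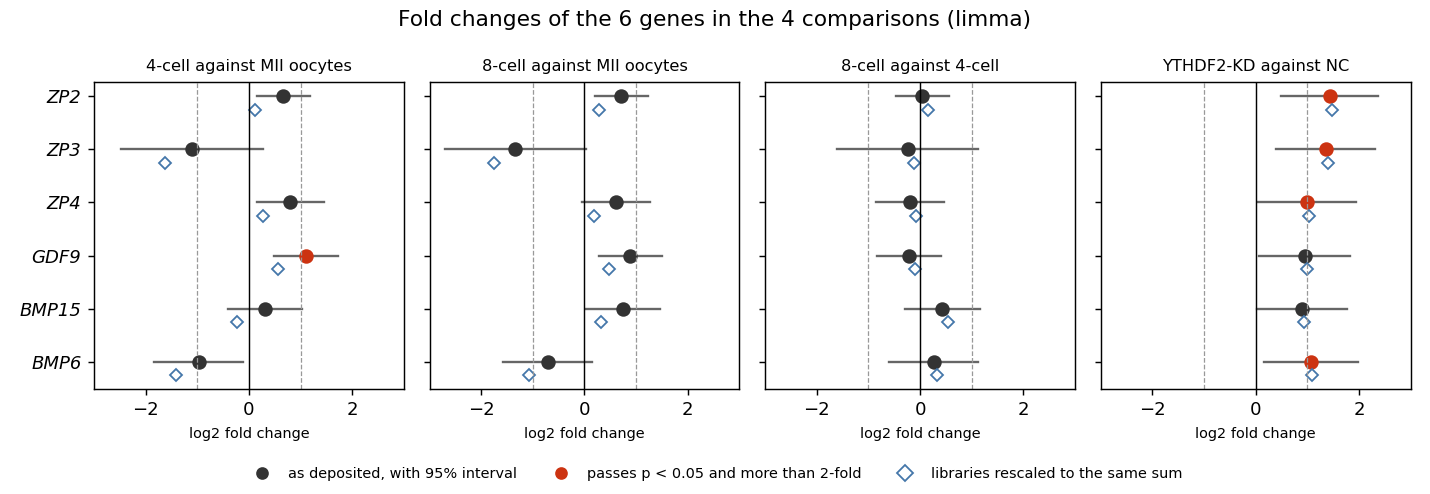
Log2 fold changes of the 6 genes (limma, log2(FPKM + 1)) in the 4 comparisons, as filled points with 95% intervals, red where the unadjusted p is under 0.05 and the change more than 2-fold, and as open diamonds after each library was rescaled to the same sum. At the stages only *GDF9* at the 4-cell stage is red (1.11) and the diamonds lie lower than the points against MII, while under *YTHDF2* siRNA all 6 points lie between 0.91 and 1.43.

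Ratios between these genes within a library do not depend on the library total. *ZP2* over *ZP4* was 0.836 to 1.64 in MII, 0.923 to 1.29 at the 4-cell and 1.06 to 1.65 at the 8-cell stage, so the groups overlapped. *ZP2* over *ZP3* was 2.79 to 9.82 in MII, 14.0 to 24.9 at the 4-cell and 10.8 to 38.9 at the 8-cell stage. *ZP4* over *ZP3* was 3.34 to 6.12, 10.9 to 27.0 and 10.1 to 30.9 in the same groups. Both ratios were higher in every embryo library than in every MII library, with the lowest 8-cell ratios in replicate 1. As a share of the summed FPKM of the 3 zona genes, *ZP3* took 5.95, 14.0 and 7.06% in MII, 2.13, 3.86 and 1.89% in 4-cell and 4.57, 1.58 and 1.51% in 8-cell embryos. *BMP15* over *GDF9* was 1.20 to 1.68 in MII and 0.733 to 0.949 at the 4-cell stage, apart from each other, and 0.932 to 2.00 at the 8-cell stage, where replicate 1 held the highest value.

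**Figure D3:**
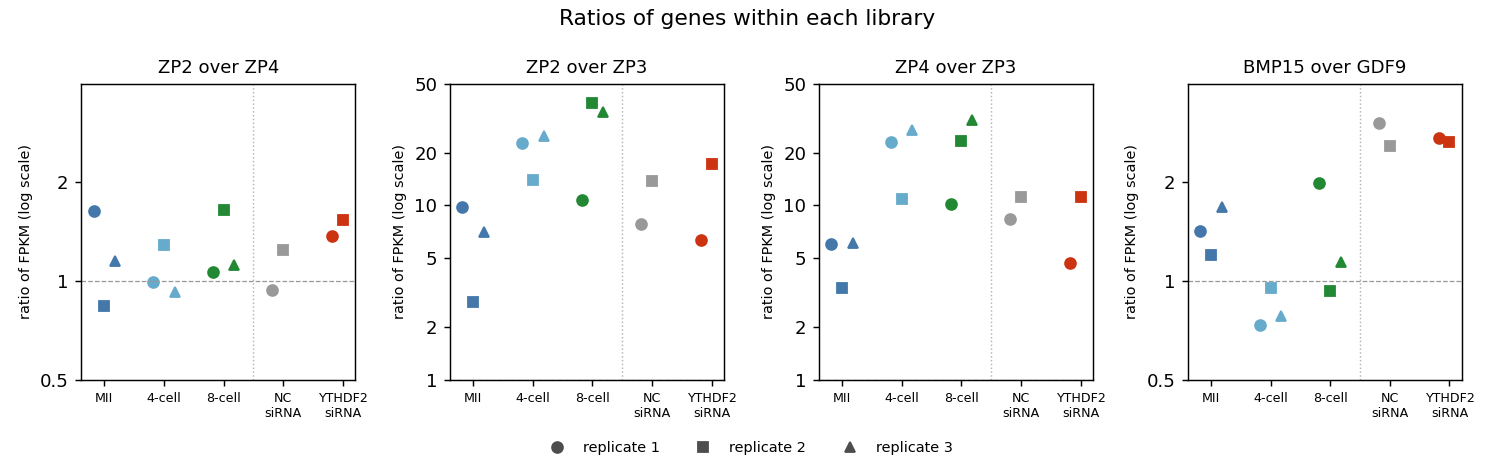
Ratios of the FPKM of pairs of genes within each library (log axes), with 1 point per library, the shape giving the replicate number; the dashed line marks equal FPKM. The ratios of *ZP2* and *ZP4* to *ZP3* were above 10 in every embryo library of the untreated groups and below 10 in every MII library, and *BMP15* over *GDF9* was 2.58 to 3.03 in the injected libraries.

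All 6 genes had higher values in both YTHDF2-KD libraries than in both NC libraries, as did 30.3% of all 11004 genes tested. By the rule of p and fold, 4 of 6 passed as higher (*ZP2*, *ZP3*, *ZP4* and *BMP6*) and 0 as lower, where 9.48% of all genes passed as higher and 15.3% as lower. With the adjusted p in the rule 0 of 6 passed, where 2.06% of all genes passed as higher (limma). Then 1 gene passed with same-sum rescaling (*ZP2*), 2 without YTHDF2-KD replicate 1 (*ZP2* and *ZP4*) and 3 with the replicate numbers crossed as a block (*ZP2*, *ZP3* and *ZP4*), a fit chosen after seeing the data. The median log2 fold change was 1.04 over the 6 genes and 0.01 over all genes. The 6 values lay between the percentiles 87.4 and 97.5 of all tested genes. Across the 4 injected libraries the 6 genes varied together (Pearson's r of 0.63 to 0.99 over all pairs), so they are not separate observations.

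*ZP2* measured 148 and 122 FPKM in NC and 232 and 575 FPKM in YTHDF2-KD, and limma gave a log2 fold change of 1.43 (SE 0.44, 95% interval 0.49 to 2.38, adjusted p = 0.060). *ZP3* measured 18.96 and 8.85 FPKM in NC and 36.55 and 33.41 FPKM in YTHDF2-KD, with a log2 fold change of 1.36 (SE 0.45, interval 0.40 to 2.31, adjusted p = 0.072). The *ZP2* values of YTHDF2-KD differed widely between replicates and those of *ZP3* hardly did. *ZP4* measured 158 and 98.7 FPKM in NC and 170 and 373 FPKM in YTHDF2-KD, with a log2 fold change of 1.004 (SE 0.44, interval 0.06 to 1.95, adjusted p = 0.15). The lower YTHDF2-KD value of *ZP4* lay just above the higher NC value, and the gene passed the 2-fold limit narrowly, at 2.01-fold.

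*GDF9* measured 82.9 and 59.8 FPKM in NC and 107 and 177 FPKM in YTHDF2-KD, and limma gave a log2 fold change of 0.95 (SE 0.41, interval 0.07 to 1.84, adjusted p = 0.14). *BMP15* measured 251 and 154 FPKM in NC and 291 and 470 FPKM in YTHDF2-KD, with a log2 fold change of 0.91 (SE 0.41, interval 0.03 to 1.78, adjusted p = 0.16). Both fell short of 2-fold, at 1.94-fold and 1.87-fold. *BMP6* measured 2.69 and 2.08 FPKM in NC and 7 and 5.25 FPKM in YTHDF2-KD, with a log2 fold change of 1.07 (SE 0.43, interval 0.16 to 1.98, adjusted p = 0.12). The groups of *BMP6* lay well apart, with close replicates in each.

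With 2 libraries a group, a lone library left in a group is assumed to vary like the other group. Without YTHDF2-KD replicate 2, *ZP2* was 0.78 and *ZP4* 0.44, and neither passed. Without NC replicate 2, *ZP3* was 0.85, *ZP4* 0.67 and *BMP6* 0.94, and only *ZP2* passed. Without YTHDF2-KD replicate 1, *BMP6* was 0.89 and did not pass, while *GDF9* (1.32) and *BMP15* (1.25) did. Without NC replicate 1 all 6 genes passed, *GDF9* at 1.19 and *BMP15* at 1.25. *ZP4* also missed the rule with no filter, with an eBayes fit without trend, with median-ratio rescaling (0.9978) and with the replicate number as a block (limma adjusted p = 0.22). With quantile rescaling all 6 genes passed, *GDF9* at 1.08 and *BMP15* at 1.15, and with same-sum rescaling the same 4 as on the deposited scale. The values of all 6 genes were above 0 in every fit.

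Proportions between the genes were also compared within the injected libraries. *BMP15* over *GDF9* was 2.58 to 3.03 in NC and 2.66 to 2.73 in YTHDF2-KD. *ZP4* over *ZP3* was 8.35 to 11.2 in NC and 4.64 to 11.2 in YTHDF2-KD, and *ZP2* over *ZP3* was 7.83 to 13.8 and 6.36 to 17.2, so the groups overlapped and the YTHDF2-KD replicates differed by more than the NC replicates. *GDF9* over *BMP6* was 28.8 to 30.8 in NC and 15.2 to 33.7 in YTHDF2-KD. *ZP2* over *ZP4* was 0.938 to 1.24 in NC and 1.37 to 1.54 in YTHDF2-KD, apart from each other. In NC *BMP15* was the most abundant of the 6 genes, above *ZP2* in each NC library, while the YTHDF2-KD values of *ZP2*, *BMP15*, *ZP4* and *GDF9* overlapped from neighbour to neighbour.

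The injected and untreated tables were normalized separately, so levels were set side by side with no test. All 6 genes were lower in both NC libraries than in all 3 untreated 8-cell libraries, as were 33.2% of all genes. The NC mean was 15.9% of the untreated 8-cell mean for *ZP2*, 35.8% for *ZP3*, 18.7% for *ZP4*, 15.7% for *GDF9*, 33.1% for *BMP15* and 59.8% for *BMP6*, where the median of all genes was 91.7%. *ZP2* ranked 636 to 760 from the top in NC, *ZP4* 601 to 906, *GDF9* 1095 to 1336 and *BMP15* 367 to 634. In YTHDF2-KD the mean was 47.3% of the untreated one for *ZP2*, 39.6% for *ZP4* and 31.1% for *GDF9*, and these 3 genes were still below all untreated 8-cell libraries, as were 28.2% of all genes. *ZP3* (90.1%), *BMP15* (62.1%) and *BMP6* (154%) in YTHDF2-KD overlapped with or exceeded the untreated range. The share of *ZP3* rested on the divergent 8-cell replicate 1 (65.9 FPKM, against 23.3 and 27.3 FPKM), and without it was 55.0% in NC and 138% in YTHDF2-KD. *BMP15* was then at 43.4% and 81.4%. Other genes moved between the tables too. *YTHDF2* was at 10.8 to 16.7 FPKM in the untreated 8-cell libraries and at 112 and 159 FPKM in NC, and the summed level of the 4 activated genes was 334 to 1380 FPKM in untreated 8-cell libraries and 3153 to 3905 FPKM in NC. Their part in the difference was not tested.

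The other genes were followed by lists, in which each count stands beside the shares of all genes given above. Of the list genes called against MII, 10 of 15 at the 4-cell stage and 15 of 24 at the 8-cell stage passed in all 3 rescalings of the libraries, as did 13 of 17 called in YTHDF2-KD, and those that did not are named below. With each library of a comparison left out in turn, 10 of these 15, 15 of 24, 9 of 11 called between the embryo stages and 2 of 17 in YTHDF2-KD (*NOBOX* and *GDF3*) passed every time, and the losses are given by gene. Of the egg-surface and zona-linked proteins, 4 were tested in YTHDF2-KD and 2 rose. *ASTL*, which encodes the cortical granule protease that cleaves ZP2, measured 2.32 and 4.12 FPKM in NC and 9.72 and 6.68 FPKM in YTHDF2-KD (log2 fold change 1.14, limma adjusted p = 0.11). *IZUMO1R*, the egg receptor of sperm IZUMO1, measured 8.54 and 0.81 FPKM in NC and 8.51 and 12.4 FPKM in YTHDF2-KD (1.44, adjusted p = 0.14), and its groups overlapped. Against MII, 0 of the 4 tested genes of this list passed as lower at either stage, and *CD9*, the tetraspanin needed for gamete fusion, was the one that rose at the 8-cell stage (2.33, adjusted p = 0.0038). *CD9* measured 0, 0 and 0.0838 FPKM in MII and 5.25, 3.56 and 3.79 FPKM at the 8-cell stage, so it reached the filter only through embryo libraries. Rescaled, 1 gene of this list, *CD81*, passed as lower at the 4-cell stage, and without 8-cell replicate 1 2 genes passed as lower at the 8-cell stage. In YTHDF2-KD *IZUMO1R* passed in 2 of 3 rescalings and was at 0.24 without NC replicate 2, while *ASTL* was at 0.83 without NC replicate 1 and at 0.90 without YTHDF2-KD replicate 1.

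Of the oocyte transcription factors, which include NOBOX and FIGLA, regulators of zona and oocyte factor genes, 6 were tested in YTHDF2-KD, 4 rose and 0 fell, with a list median of 1.17. *NOBOX* measured 1.19 and 0.97 FPKM in NC and 4.48 and 3.74 FPKM in YTHDF2-KD (log2 fold change 1.29, limma adjusted p = 0.065). *FIGLA* measured 0.61 and 0.43 FPKM in NC and 1.73 and 3.37 FPKM in YTHDF2-KD (1.19, adjusted p = 0.087). It reached the filter of 1 FPKM, and so the counts of this list, only through its YTHDF2-KD values. *TBPL2*, the oocyte form of the TATA-binding protein, rose by 1.33 and *YBX2*, an mRNA-storage protein, by 1.16 (adjusted p = 0.072 and 0.087). The groups of these 4 genes, already picked by p and fold, lay apart, as did those of 30.3% of all genes. Against MII, *FIGLA* fell by 1.47 at the 4-cell and by 1.43 at the 8-cell stage (adjusted p = 0.044 and 0.042). *TBPL2* rose by 1.52 at both stages (adjusted p = 0.0019 and 0.0014). At the 8-cell stage *TAF4B* (1.14) and *YBX2* (1.35) rose as well, so 3 of 7 tested factors rose and 1 fell there, and 1 rose and 1 fell at the 4-cell stage. *TBPL2* and *FIGLA* passed in all 3 rescalings, while *TAF4B* and *YBX2* at the 8-cell stage passed in none. Without MII replicate 2 *FIGLA* was at -0.87 (4-cell) and -0.83 (8-cell), and it also missed the rule at the 8-cell stage without 8-cell replicate 3 (-1.19). *YBX2* at the 8-cell stage was at 0.990 without 8-cell replicate 1 and at 0.74 without MII replicate 3, and missed the rule without 8-cell replicate 3 or MII replicate 1. In YTHDF2-KD *FIGLA* (0.85) and *TBPL2* (0.97) fell short of 2-fold without YTHDF2-KD replicate 2, and *TBPL2* missed the rule without NC replicate 2 and *YBX2* without NC replicate 1. *NOBOX* was at 22.9 FPKM in 8-cell replicate 1 and at 0.931 and 1.72 FPKM in the others.

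Of the other oocyte markers, 7 were tested in YTHDF2-KD, 3 rose and 0 fell, with a list median of 0.97. With same-sum rescaling 4 passed as higher. *MOS*, the kinase that keeps the oocyte in meiotic arrest, measured 91.5 and 34.0 FPKM in NC and 133 and 261 FPKM in YTHDF2-KD (log2 fold change 1.72, limma adjusted p = 0.047). *NPM2*, a histone chaperone of the egg, rose by 1.39 and *PADI6*, a protein of the oocyte lattices, by 1.38 (adjusted p = 0.054 and 0.058). Without NC replicate 2, 0 of these markers passed. The summed level of the 8 listed oocyte markers was 5368 to 6765 FPKM in MII, 8849 to 10029 FPKM at the 4-cell and 6488 to 7812 FPKM at the 8-cell stage, 2733 to 4339 FPKM in NC and 5833 to 6442 FPKM in YTHDF2-KD. *BTG4* and *KPNA7* held 93.1 to 98.2% of this sum in every library, and neither passed in YTHDF2-KD as deposited (0.97 and 0.65, limma adjusted p = 0.11 and 0.23). The other 6 markers summed to 66.5 to 145 FPKM in NC and 223 to 342 FPKM in YTHDF2-KD, where *DAZL* was at 0.22 and *DDX4* at -0.55 (adjusted p = 0.78 and 0.44). Against MII, *DAZL* rose at the 4-cell stage (1.77, adjusted p = 3.6e-04) and *NPM2* fell at the 8-cell stage (-1.09, adjusted p = 0.079), and both passed in all 3 rescalings. *NPM2* rested on MII replicate 2, without which it was at -0.53, and it also missed the rule without 8-cell replicate 1 (-0.92) or 8-cell replicate 2 (-1.08). From the 4- to the 8-cell stage *NPM2* fell from 133, 120 and 167 FPKM to 35.0, 43.7 and 56.5 FPKM (-1.63, limma adjusted p = 0.052), and it passed there in all 3 rescalings and with each library left out. Rescaled, *MOS* (median-ratio and quantile) and *KPNA7* (quantile and same sum) also passed as lower at the 4-cell stage (*MOS* -1.25 and -1.39, *KPNA7* -1.07 and -1.09), where they were at -0.95 and -0.55 as deposited.

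**Figure D4:**
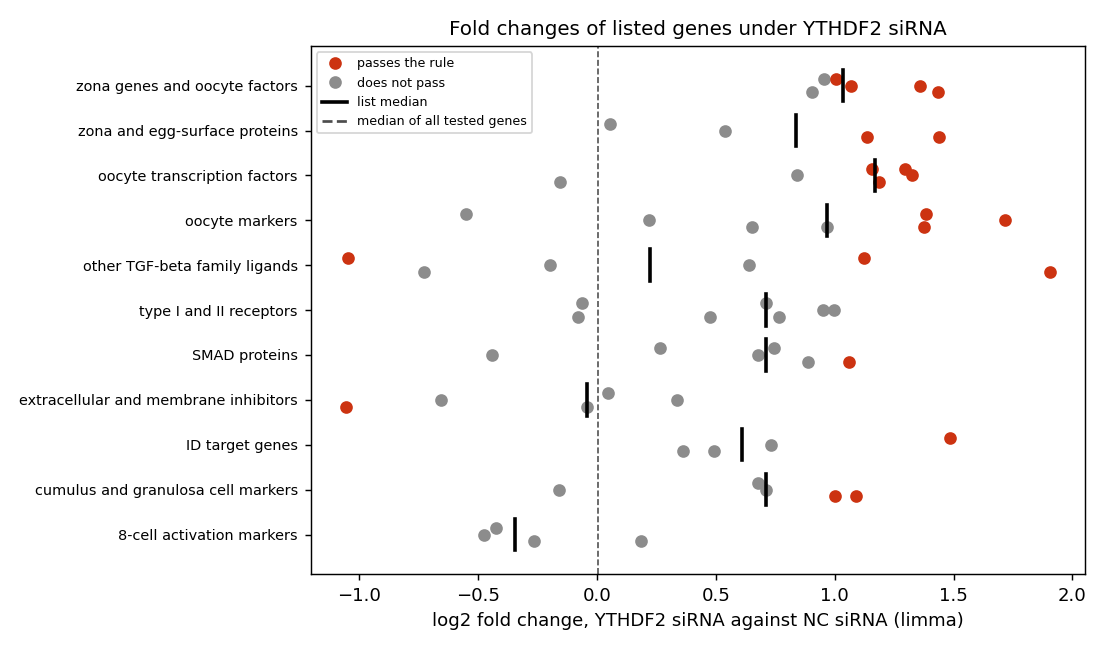
Log2 fold changes (limma) between YTHDF2-KD and NC of the tested genes of each list, with 1 point per gene, red where the gene passed the rule, the list median as a bar and the median of all genes (0.01) as a dashed line. Medians were 1.04 for the zona genes and oocyte factors, 1.17 for oocyte transcription factors and 0.97 for oocyte markers, and -0.34 for the genes activated at the 8-cell stage. The other medians were 0.84 (egg-surface proteins), 0.71 (receptors, SMAD genes and cumulus and granulosa markers), 0.61 (ID genes), 0.22 (other ligands) and -0.04 (inhibitors).

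GDF9 signals through BMPR2, TGFBR1 and SMAD2 and SMAD3, while BMP15 and BMP6 act through type I BMP receptors and SMAD1, SMAD5 and SMAD9. Of the receptors, 7 were tested in each fit. At the 4-cell stage 3 rose and 0 fell against MII, namely *ACVR2A* (log2 fold change 1.45), *BMPR2* (1.20) and *TGFBR1* (1.04), with limma adjusted p = 0.0055, 0.0073 and 0.013. In 8-cell embryos 2 rose, *ACVR2A* (1.27) and *TGFBR1* (1.06), and both fell short of 2-fold without 8-cell replicate 1 (0.996 and 0.97). *TGFBR1* did so too without MII replicate 1 at either stage, without MII replicate 3 or 4-cell replicate 2 at the 4-cell stage and without 8-cell replicate 2 at the 8-cell stage (0.93 to 0.997). With the libraries rescaled, *ACVR2A* passed in all 3 rescalings at the 4-cell stage and in 1 of 3 at the 8-cell stage, *BMPR2* and *TGFBR1* passed in none, and 1 receptor (4-cell) and 2 or 3 (8-cell) were called lower. *BMPR2* measured 10.5, 9.35 and 9.46 FPKM in MII, 22.3, 26.4 and 22.7 FPKM at the 4-cell stage and 11.3, 23.9 and 20.5 FPKM at the 8-cell stage, where replicate 1 was the low one. In YTHDF2-KD 0 of 7 receptors passed, with a median of 0.71. When 1 library was left out, which receptor passed as higher depended on that library. *BMPR1B*, a type I receptor of BMP15 and BMP6, was at 0.9985 with all 4 libraries and passed as higher in all 3 rescalings (1.002 to 1.09).

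Of the SMAD genes, 6 were tested, and 3 rose at the 4-cell stage, *SMAD5* (log2 fold change 1.66, limma adjusted p = 0.0011), *SMAD2* (1.18, adjusted p = 0.0021) and *SMAD9* (1.06, adjusted p = 0.014). *SMAD5* and *SMAD2* rose at the 8-cell stage too (1.80 and 1.31). *SMAD5* passed in all 3 rescalings at both stages, and *SMAD2* and *SMAD9* in none. *SMAD9* was at 0.86 without 4-cell replicate 1. *SMAD5* measured 63.3, 51.0 and 47.0 FPKM in MII and 128, 227 and 227 FPKM at the 8-cell stage. It was also the 1 SMAD gene that rose in YTHDF2-KD, from 29.4 and 23.6 FPKM in NC to 45.8 and 68.4 FPKM (1.06, adjusted p = 0.11), beside a list median of 0.71, but not without NC replicate 2 (0.91) or YTHDF2-KD replicate 2 (0.77).

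Few other TGF-beta family ligands reached the filter, 3 at the stages and 6 in the injected libraries. *GDF3*, a nodal-related ligand, rose at the 4-cell stage (log2 fold change 1.18, limma adjusted p = 0.030), but passed in none of the rescalings and was at 0.91 without MII replicate 3. It measured 13.1 and 4.95 FPKM in NC and 25.8 and 42.9 FPKM in YTHDF2-KD (1.90, adjusted p = 0.031). *TGFB2* rose in YTHDF2-KD (1.12, adjusted p = 0.12), while *GDF11* fell (-1.05, adjusted p = 0.15), so 2 rose and 1 fell of 6, and *GDF11* passed in 2 of 3 rescalings and not without NC replicate 1 (-0.81) or YTHDF2-KD replicate 2 (-0.49). *TGFB2* was at 0.63 without NC replicate 2 and missed the rule without either YTHDF2-KD replicate. *BMP4* rose from the 4- to the 8-cell stage (1.65, adjusted p = 0.032). Of the proprotein convertases, which cut these precursors, 2 were tested at the stages and 1 in YTHDF2-KD, and 0 passed.

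Of the inhibitors, 3 were tested at the stages. *BMPER* fell at the 4-cell and the 8-cell stage (log2 fold change -1.11 and -1.67, limma adjusted p = 0.093 and 0.017), and the BMP antagonists *SOSTDC1* (1.79) and *GREM1* (1.504) rose at the 8-cell stage. *GREM1* also rose from the 4- to the 8-cell stage (1.12, adjusted p = 0.15; 2 of 3 rescalings), but was at 0.65 without 8-cell replicate 1 and missed the rule without 4-cell replicate 1 or 3. In YTHDF2-KD 5 inhibitors were tested, and *BAMBI*, a decoy receptor, fell from 51.7 and 48.3 FPKM to 24.2 and 22.8 FPKM (-1.06, adjusted p = 0.10). *BAMBI* passed in 2 of 3 rescalings, and not without either NC replicate. At the 4-cell stage *BMPER* was at -0.70 without 4-cell replicate 1 and missed the rule without 4-cell replicate 3, MII replicate 2 or MII replicate 3 as well.

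The ID genes are direct targets of BMP signals. Of the 4 genes, 1 rose at the 4-cell stage, 3 rose and 1 fell at the 8-cell stage against MII, and 2 rose and 1 fell between the embryo stages. *ID2* measured 0.232, 0.0817 and 5.49 FPKM in MII, 84.9, 104 and 115 FPKM at the 4-cell stage and 419, 346 and 373 FPKM at the 8-cell stage. *ID3* fell from the 4- to the 8-cell stage (log2 fold change -1.62, limma adjusted p = 0.16) and rose in YTHDF2-KD, from 42.8 and 43.9 FPKM in NC to 81.9 and 185 FPKM (1.49, adjusted p = 0.052), the 1 of 4 that passed there (2 of 4 with quantile rescaling). In YTHDF2-KD it was at 0.90 without YTHDF2-KD replicate 2. Between the embryo stages it was at -0.83 without 4-cell replicate 2 and missed the rule without 4-cell replicate 1 or 8-cell replicate 2 or 3, and against MII (-1.64 at the 8-cell stage) without MII or 8-cell replicate 2 or 3. *ID4* (1.12 at the 8-cell stage) passed in none of the rescalings and was at 0.96 without MII replicate 1.

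The target cells of GDF9 and BMP15 are granulosa and cumulus cells, and their markers were measured for this reason. The summed level of 14 listed markers was 68.2 to 89.8 FPKM in MII, 88.6 to 91.1 FPKM at the 4-cell and 121 to 191 FPKM at the 8-cell stage, 65.8 to 106 FPKM in NC and 115 to 120 FPKM in YTHDF2-KD. Of these, 9 were at 4.30 FPKM or less in every library, with *AMH* at most 0.390 FPKM, *FSHR* at most 0.248 FPKM and *INHA* at most 1.36 FPKM, and *FSHR* and *INHA* at 0 in all 4 injected libraries. The other 5 were present, *STAR* at 17.6 to 95.6 FPKM (highest in 8-cell replicate 1), *SERPINE2* at 9.93 to 52.6 FPKM, *HAS2* at 8.15 to 29.4 FPKM, *VCAN* at 8.44 to 22.4 FPKM and *TNFAIP6* at 0.782 to 19.8 FPKM. Their part in the results was not tested. Of the 5 tested in YTHDF2-KD, 2 rose, *HAS2* and *TNFAIP6* (log2 fold change 1.001 and 1.09, limma adjusted p = 0.13 each), both targets of GDF9 in cumulus cells. *HAS2* rose at the 8-cell stage too (1.31, adjusted p = 7.5e-04), with *SERPINE2* (1.02) and *CYP19A1* (1.02), so 3 of 7 rose there, and 0 of 7 after median-ratio rescaling. *SERPINE2* (0.67) and *CYP19A1* (0.95) fell short of 2-fold without 8-cell replicate 1, and also without MII replicate 1 or 3. In YTHDF2-KD *HAS2* passed in 2 of 3 rescalings, and 0 of these markers rose without NC replicate 1 or without NC replicate 2. Without YTHDF2-KD replicate 1 *TNFAIP6* was at 0.64, and without YTHDF2-KD replicate 2 *HAS2* was at 0.92. Of the sperm markers, 3 were listed in all tables and summed to at most 0.990 FPKM in untreated libraries, 12.2 to 12.6 FPKM in NC and 3.51 to 25.1 FPKM in YTHDF2-KD. Most of the injected sums came from *TNP2* (11.06 and 11.86 FPKM in NC, 24.35 and 2.62 FPKM in YTHDF2-KD). In these libraries *AKAP4* was at most 1.32 FPKM and *ODF1* at most 0.41 FPKM. Of the 4 genes activated at the 8-cell stage, 0 passed in YTHDF2-KD (median -0.34), and their sums of 3153 to 3905 FPKM in NC and 3123 to 3480 FPKM in YTHDF2-KD overlapped.

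The course of the members across the 9 untreated libraries was compared by Pearson's r of log2(FPKM + 1), given as a description, since the libraries share stage, depth and scaling. *GDF9* followed *ZP4* (r = 0.87) and *ZP2* (r = 0.82), and *ZP2* followed *ZP4* (r = 0.75). *ZP3* was close to none of these (r = -0.28 with *ZP2*, -0.20 with *GDF9* and -0.0041 with *ZP4*), and its highest r was that with *BMP6* (0.67). Among 3654 other genes with a symbol and a mean of at least 10 FPKM, the 3 closest to *ZP2* were *NEK2* (0.97), *PPP4R3A* (0.94) and *KATNBL1* (0.94). Those closest to *ZP4* were *EIF2B1* (0.98), *GPX4* (0.96) and *PRKAG1* (0.94), and those closest to *ZP3* were *PWP1* (0.94), *C5H12orf57* (0.91) and *CAAP1* (0.88). *GDF9* was closest to *ACAT2* (0.98), *HSBP1* (0.98) and *HUS1* (0.98), *BMP15* to *NCAPH* (0.95), *NUB1* (0.94) and *ATP6V0A4* (0.94), and *BMP6* to *UBE2R2* (0.92), *HDAC3* (0.91) and *ABCB1* (0.91). In YTHDF2-KD 4 of these 18 genes passed as higher and 2 as lower, beside 9.48% and 15.3% of all genes. Those that passed as higher were *KATNBL1*, *HUS1*, *ATP6V0A4* and *HDAC3*, and those that passed as lower were *C5H12orf57* and *GPX4*.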

How the data were processed

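The authors mapped Smart-seq2 reads with HISAT2 2.1.0 to the ARS1 assembly of the goat, took unique hits into HTSeq counts and deposited FPKM per library and gene, the unit of all values used here. The injected tables hold values rounded to 2 decimals. Gene names were used as listed, duplicated names were dropped, and no coordinates were used because the reference table was made for another release. Groups came from the labels.

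The tests used limma 3.58.1 (R 4.3.3, eBayes with trend) on log2(FPKM + 1). A gene was tested when it averaged 1 FPKM or more in the libraries concerned, 9090 of 18159 names in the 9 untreated libraries and 11004 of 27121 in the 4 injected libraries. As this mean spans all groups, a gene low in 1 group could be tested through another where it was high. Called genes that averaged below 1 FPKM in the lower group include *FIGLA* in YTHDF2-KD and *CD9*, *ID1*, *ID4*, *TGFBR1*, *SMAD9*, *GREM1* and *CYP19A1* at the stages. The call rule follows the study, an unadjusted p under 0.05 and more than 2-fold, and adjusted p are Benjamini-Hochberg over all tested genes. Intervals are at 95%. Fragments were recovered from the FPKM steps for 17917 of 17918 genes within 0.02 fragments, and the fit was tested on simulated data. Named were the 6 genes, *YTHDF2*, up to 4 passing genes of each list with the smallest p, and the 3 genes closest to each member. *AMH*, *FSHR* and *INHA* were named for their levels and were not tested. *AKAP4*, *BMPR1B*, *BTG4*, *CD81*, *DDX4*, *KPNA7*, *ODF1*, *STAR*, *TNP2* and *VCAN* were named after their values were seen. The genes and lists were chosen with earlier results of these data known. Python 3.11.15 with pandas 2.3.3 was used for the rest.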

Additional observations from a re-analysis of the deposited data

How the results depend on the processing

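Against MII at the 4-cell stage, members called higher numbered 1 and became 0 with median-ratio, quantile and same-sum rescaling, and 0 to 2 without 1 library. Members called lower numbered 0 and became 2 with each of these rescalings, 1 with a pseudocount of 0.1 and 1 with voom on the recovered fragments (*BMP6*), and 0 to 2 without 1 library. At the 8-cell stage, members called higher numbered 0 and ran from 0 to 1 without 1 library. Members called lower numbered 0 and became 2 with each rescaling, 1 with voom (*ZP3*, -1.37), and 0 to 1 without 1 library. *BMP15* at the 4-cell stage turned to -0.26 (quantile) and -0.22 (same sum). Between the embryo stages *ZP2* turned to -0.038 with median-ratio rescaling, and without 1 library ran from -0.13 to 0.29, *ZP3* from -0.69 to 0.25 and *BMP6* from -0.14 to 0.64. Under *YTHDF2* siRNA, members called higher numbered 4, 3 with median-ratio, 6 with quantile and 4 with same-sum rescaling, and 1 to 6 without 1 library. The voom fit was chosen after seeing the data.

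Of all calls, 26.6% were lower at the 4-cell stage as deposited, and 49.0%, 51.7% and 65.2% after median-ratio, quantile and same-sum rescaling. At the 8-cell stage these were 29.1%, 50.4%, 52.7% and 53.0%. Calls lower at the 4-cell stage were 551 as deposited and up to 1155 rescaled, and at the 8-cell stage 740 and up to 1221.

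No label pairs libraries by replicate number, and the values could not decide whether they are paired. Deviations of same-numbered libraries correlated by -0.51 to 0.20 in the untreated and -0.15 in the injected sets. With 2 libraries a group, the deviations mirror each other and the injected set gives a single value. With the replicate block, members called higher under *YTHDF2* siRNA numbered 3 (*ZP4* lost), and the stage counts stayed at 1 higher and 0 lower (4-cell) and at 0 and 0 (8-cell). With the numbers crossed, chosen after seeing the data, 4 passed.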
